A study of Drosophila melanogaster with 312 samples.

Results

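Before selection for night sleep began, the male flies of the 2 replicate sets of populations already differed in gene expression, and the comparison described here is between those sets: Replicate 1 (set 1) over Replicate 2 (set 2) in males of generation 0. Set 1 held populations C1, S1 and L1, with 6 male libraries, and set 2 held C2, S2 and L2, with 5 male libraries, so that 11 of the 12 male libraries of that generation were members. The letters give the scheme each bottle was about to enter: unselected control (C), selection for short night sleep (S) or selection for long night sleep (L). All 6 bottles were founded from 1 outbred population, the Sleep Advanced Intercross Population, made by crossing lines of the Drosophila Genetic Reference Panel, so no allele, transgene or treatment separated the sets by design. Each library came from a pool of 10 whole virgin males frozen at midday after their sleep had been recorded, with 2 pools per population and sex. Pools of the S and L populations were drawn after the most extreme sleepers had been taken out as parents, and the C pools at random. Each population was a single bottle, so the pools of a population shared their bottle, and 3 bottles per set were the replicates. Expression was measured by poly(A) RNA-seq, and levels below are normalised read counts (raw counts divided by the size factor the authors gave each library), compared between libraries and not between genes.

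Whole adult males are a mixture of tissues. Their RNA comes from the fat body, which stores and mobilises lipid under the control of insulin-like peptides and adipokinetic hormone, from the flight and body muscles, the gut, the head and nerve cord, and from the reproductive tract. The accessory glands and ejaculatory bulb of the tract secrete the seminal fluid proteins that change the behaviour and egg laying of the mated female, while the testis makes sperm from a largely separate set of genes. Heat shock proteins are chaperones, and among them the Hsp70 genes are almost silent until a fly is stressed. The JNK and JAK/STAT pathways carry signals of damage and of infection. TOR and insulin signalling set the balance between growth and use of reserves.

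The libraries held 34966292 to 41696347 counts in set 1 and 35090775 to 37762806 counts in set 2. One further male library, pool 2 of S2, was not a member, because it carried female RNA: osk, which female germ cells express, stood at 18258 normalised counts there, against 28.6 to 205.3 in the 6 libraries of set 1 and 16.9 to 109 in the 5 libraries of set 2. Over the 23 female germline genes used for this check the left-out library reached a median of 34.4% of the level in females, and no member library exceeded 0.637%. The sample numbers that the submitters gave the set 1 libraries all come before those of the set 2 libraries. Sample replicate labels of 3 or 4 fall on both pools of L2, pool 1 of S2 and pool 2 of C2. Label 3 also falls on pool 2 of C1 and of S1. The other member libraries carry labels 1 or 2. In set 2, the numbers of the libraries labelled 3 or 4 follow those of all generation 0 females, while that of C2 pool 1 lies among them. The paper states that spare pools were held back in case of need. What the numbers and labels record is not stated. A difference between the sets and any difference in handling that follows them cannot be told apart.

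The sets separated on the first principal component, which held 45.6% of the variance over the 11 libraries: the libraries of set 1 lay between 17.1 and 31.9 and those of set 2 between -32.3 and -25.4. Of 14237 genes tested, 1255 were higher in set 1 (8.82%) and 1780 lower (12.5%), 3035 in all (21.3%), at an adjusted p under 0.05 in edgeR's quasi-likelihood test on the 6 population sums. The 6 libraries of set 1 all lay above the 5 of set 2 for 750 genes (5.27%) and all below for 1392 genes (9.78%), together 2142 genes or 15% of those tested, and 1869 of these were among the called genes. Most differences were small. The median called gene was 0.43 higher or 0.54 lower on the log2 scale, and a change of more than 2 log2 units was reached by 39 of the higher and 37 of the lower genes. Between populations of the same set, tested over the spread between their pools, no gene was called at the same threshold (edgeR, smallest adjusted p = 0.085, with 613 genes at an unadjusted p under 0.05). Calls came from every large chromosome arm in similar shares, from 7.72% higher and 10.1% lower on X to 9.46% higher and 13.5% lower on 2L, and none of the 13 genes tested from the mitochondrial genome was called. Without C1 the counts were 703 higher and 1148 lower, without S1 and without C2 the higher genes numbered 823 and 826, and without L2 they numbered 2350. When the left-out S2 library was put back, 530 genes were higher and 781 lower.

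**Figure D1:**
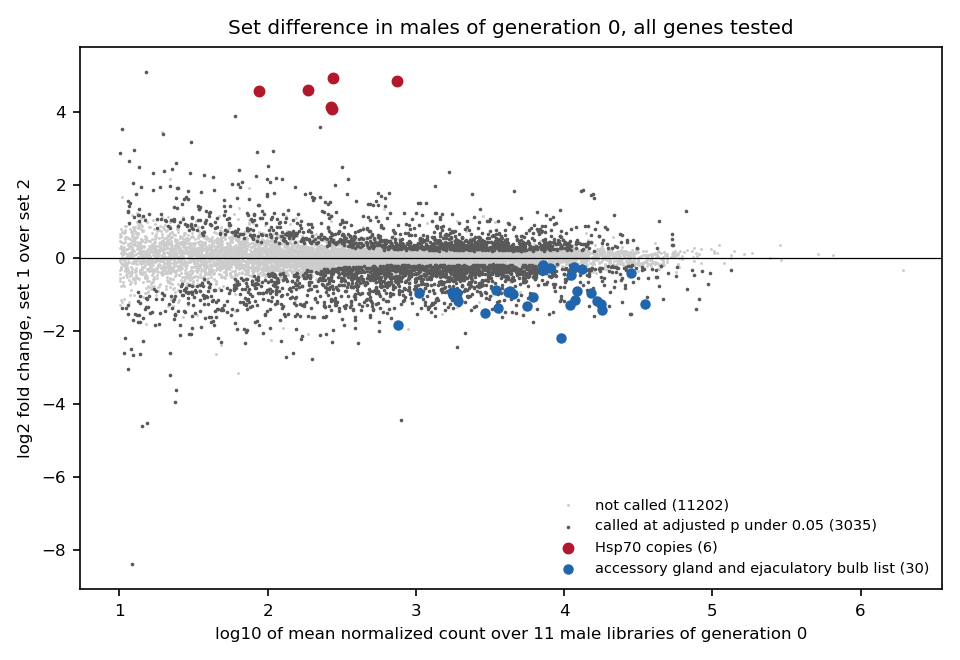
Log2 fold change of set 1 over set 2 (vertical) against the log10 of the mean normalised count (horizontal) for the 14237 genes tested in males of generation 0; grey points were not called, dark points were called at an adjusted p under 0.05. The 6 Hsp70 copies (red) lie between 4.06 and 4.92, and the 30 genes of the accessory gland and ejaculatory bulb list (blue) all lie below 0.

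The largest rises belonged to Hsp70, the main stress-inducible chaperone of the fly, which is encoded by 6 near-identical copies. All 6 were called and all rank among the 12 largest rises of the genes with a mean of at least 50. Hsp70Ab, on 3R from 11958535 to 11960909, had a lowest count of 172, a median of 504.3 and a highest of 806 in set 1, against 12.8 and 22.9 in C2, 14.0 in S2 and 15.7 and 15.3 in L2. Every library of set 1 stood well above every library of set 2, and the difference was 4.92 ± 0.12 on the log2 scale (SE, n = 3 populations each; edgeR adjusted p = 2.92e-07). The other copies were higher by 4.82 (Hsp70Ba), 4.60 (Hsp70Aa), 4.56 (Hsp70Bbb), 4.12 (Hsp70Bb) and 4.06 (Hsp70Bc), with edgeR adjusted p-values of 8.2e-07 to 0.00014. Reads were counted only where they mapped uniquely, so the split of counts between the copies is uncertain, and Hsp70Ab also overlaps a gene on the other strand. Their sum does not depend on that split. It was 3376 and 2009 in the pools of C1, 2503 and 5458 in S1 and 5213 and 904.8 in L1, against 147 and 160 in C2, 92.0 in S2 and 151 and 147 in L2. Within set 1 the pools of a single bottle, L1, lay as far apart as the pools of different bottles, while set 2 was low throughout. The left-out S2 library, at 75.5, was as low as the rest of set 2.

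Some other chaperones were higher as well, by smaller amounts. Of the 21 tested genes of the heat shock and chaperone list 14 were higher in set 1 (66.7%, against 8.82% of all genes tested). The Hsp70 copies made up 6 of these. Of the 15 others 8 were higher, 1 was lower and 6 were not called, with a median difference of 0.31 against 0.02 over all genes tested. The heat-inducible noncoding RNA of the Hsp70 cluster, lncRNA:alphagamma-element:CR32865 (3R, 12475336 to 12478267), ranged from 14.3 to 129.5 in set 1 with a median of 41.0, against 4.67 and 3.61 in C2, 4.66 in S2 and 10.9 and 3.81 in L2. It was higher by 3.16 ± 0.36 with no overlap between the sets (edgeR adjusted p = 0.000457), although it shares its span with other annotated transcripts of the same strand and the value without L1 pool 1 was 2.56. The co-chaperone starvin, stv, which binds Hsp70, was between 6246 and 10033 in set 1 (median 8145), against 4170 and 5324 in C2, 4536 in S2 and 4883 and 4925 in L2, a rise of 0.78 ± 0.06 (edgeR adjusted p = 5.81e-05). Again the sets did not overlap. The small heat shock protein Hsp23 rose by 1.00 ± 0.08 (edgeR adjusted p = 7.89e-05), with 2081 to 6455 counts in set 1 and 1748 to 2142 in set 2, so that its lowest set 1 library lay within set 2. Hsp26 rose by 0.55 ± 0.08, but that call was lost without L1 pool 1 (0.38, edgeR adjusted p = 0.0704). In the opposite direction, the endoplasmic reticulum chaperone Hsc70-3 (BiP) fell by 0.44 ± 0.07 with pool 1 of C2 level with the highest library of set 1, and its adjusted p was 0.0603 without C2 pool 2. Leaving out L1 pool 1, or putting the left-out S2 library back, gave 3 higher members among these 15 genes, and leaving out S1, L1, C2, S2, C1 pool 1, C2 pool 1 or S1 pool 2 gave 5.

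**Figure D2:**
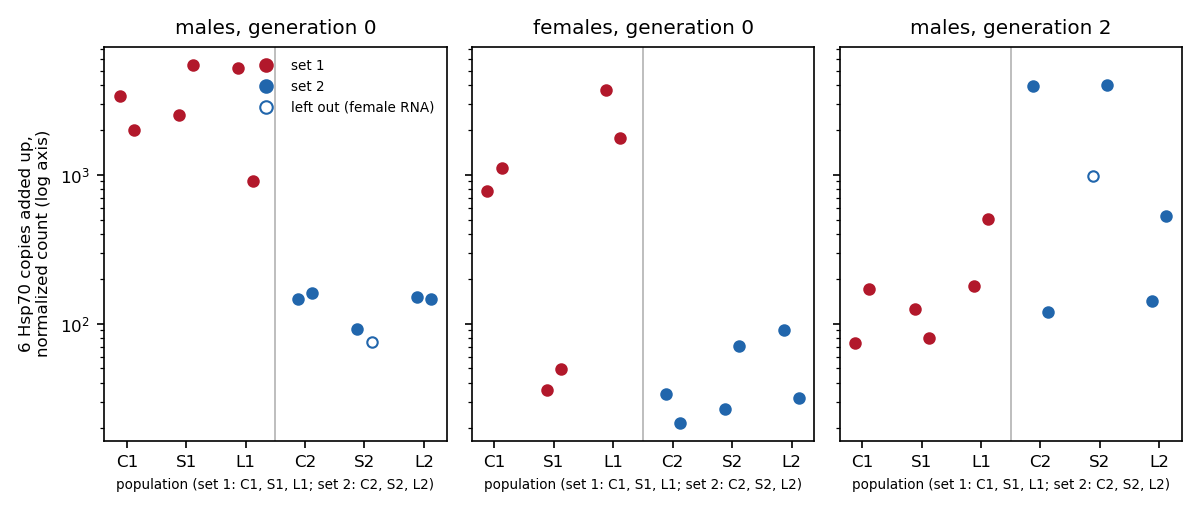
Sum of the normalised counts of the 6 Hsp70 copies (vertical, log axis) in each pool of each population, set 1 (red) left of set 2 (blue), in males of generation 0, females of generation 0 and males of generation 2; open circles are libraries left out for female RNA. In males of generation 0 the pools of set 1 lie between 904.8 and 5458 and those of set 2 between 92.0 and 160, while in generation 2 the highest pools, at 3955 and 4003, belong to set 2.

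Genes of damage signalling were higher in set 1. The cytokine upd3, which activates JAK/STAT signalling and is released by damaged or infected tissue, ran from 89.4 to 384.7 in set 1 (median 153), against 21.0 and 38.5 in C2, 17.5 in S2 and 20.6 and 20.3 in L2. All 6 libraries of set 1 were above all 5 of set 2, by 2.93 ± 0.28 (edgeR adjusted p = 0.000194). Ets21C, a transcription factor switched on by JNK, ranged from 371.9 to 1433 in set 1 with a median of 801, against 200 and 285.3 in C2, 213.1 in S2 and 272.5 and 241.5 in L2, higher by 1.76 ± 0.13 (edgeR adjusted p = 6.54e-05). Here too the sets were apart. Socs36E, both a target and a brake of JAK/STAT signalling, was higher by 0.85 ± 0.10 (edgeR adjusted p = 0.000615), and Jra, the fly Jun, by 0.46 ± 0.06 (edgeR adjusted p = 0.00128), neither with any overlap between the sets. On a list of 19 JNK and JAK/STAT genes, put together after the values of upd3 and Ets21C had been seen, 12 were higher and none lower. The higher share was 63.2%, against 8.82% of all genes tested, and the median was 0.27. That list owes its making to these libraries and its count is a description. Without L1 pool 1 it held 7 higher members.

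Among the other large rises, Gr63a, a subunit of the carbon dioxide receptor of the antenna, stood at 52.9 to 339.5 in set 1 (median 121), against 15.2 and 16.9 in C2, 24.5 in S2 and 21.8 and 12.7 in L2. Its difference of 2.88 ± 0.38 (edgeR adjusted p = 0.000913) left no overlap, and its highest library, L1 pool 1, was also the highest of set 1 for upd3. BaraB, related to the immune peptide gene Baramicin A, was 310.5 to 681 in set 1 (median 517), against 134.3 and 178 in C2, 44.3 in S2 and 46.02 and 77.5 in L2. The sets were again separate, by 2.48 ± 0.34 (edgeR adjusted p = 0.00122), and the difference was 3.22 without C2, the population with the highest counts in set 2. The sodium channel gene ppk19 was nearly constant in set 1, at 145 to 172, and was 18.7 and 45.7 in C2, 24.5 in S2 and 50.9 and 35.6 in L2, higher by 2.16 ± 0.19 (edgeR adjusted p = 0.00013). CG43403 rose by 2.39 ± 0.51 and CG7142 by 1.74 ± 0.11 (edgeR adjusted p = 0.0112 and 4.66e-05), both with no overlap between the sets. CG13868, an abundant transcript with 64876 to 113158 counts in set 1 and 31368 to 40533 in set 2, rose by 1.28 ± 0.08 (edgeR adjusted p = 3.61e-05). CG7142, CG13868 and ppk19 overlap a gene on the opposite strand, and the strand setting of the counting is not given in the sources used here, so their counts may include reads of that gene.

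Nutrient signalling formed a group of moderate rises. Of 16 tested insulin signalling genes, 7 were higher in set 1 (43.75%), 1 was lower (6.25%) and 8 were not called, with a median of 0.24. Over all genes tested the shares were 8.82% higher and 12.5% lower. With the left-out S2 library put back 4 of the 16 were higher, and at an adjusted p under 0.001 (edgeR) 2 were. The insulin receptor gene InR had a lowest count of 1345, a median of 1696 and a highest of 2118 in set 1, against 634 and 1127 in C2, 740 in S2 and 834 and 882 in L2. Its sets did not overlap and it was 2.01-fold higher, or 1.01 ± 0.08 on the log2 scale (edgeR adjusted p = 8.63e-05). The receptor substrate chico was higher by 0.57 ± 0.06, the catalytic kinase subunit Pi3K92E by 0.45 ± 0.06, the kinase Akt by 0.42 ± 0.06 and the fat body insulin-like peptide Ilp6 by 0.53 ± 0.10 (edgeR adjusted p = 0.00031, 0.0012, 0.00177 and 0.00479), all with separate sets. Pi3K92E and Akt lost their calls when the left-out S2 library was put back (edgeR adjusted p = 0.132 and 0.0601). Ilp5, an insulin-like peptide of the brain's insulin-producing cells, went the other way. It had 68.4 to 99.3 counts in set 1 (median 78.1), against 149 and 131.2 in C2, 191 in S2 and 137 and 164 in L2, lower by 0.99 ± 0.16 with no overlap (edgeR adjusted p = 0.003).

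Thor, the translational repressor 4E-BP that insulin and TOR signalling hold down, reached 16145 to 41891 in set 1 (median 25415), against 13042 and 17487 in C2, 12236 in S2 and 9970 and 12304 in L2. It was higher by 1.17 ± 0.17 (edgeR adjusted p = 0.00163), although pool 1 of S1 lay below pool 2 of C2. REPTOR, a transcription factor that acts when TOR activity is low, ranged from 3591 to 6168 in set 1 with a median of 4623, against 1856 and 2952 in C2, 2375 in S2 and 2162 and 2138 in L2. Every set 1 library was higher, by 1.01 ± 0.07 (edgeR adjusted p = 4.92e-05). CG5953, higher by 1.75 ± 0.12 with no overlap (edgeR adjusted p = 5.25e-05), overlaps other annotated genes on both strands. Brummer, bmm, the lipase that releases fatty acids from stored fat, was 8124 to 12902 in set 1 (median 10402), against 5380 and 5680 in C2, 5242 in S2 and 3597 and 5044 in L2, which is 2.08-fold higher (1.06 ± 0.09; edgeR adjusted p = 0.000107). Akh, the adipokinetic hormone that mobilises reserves, was 642 to 1114 in set 1 (median 715), against 531 and 231.1 in C2, 223.6 in S2 and 195 and 283.5 in L2. Neither gene's sets overlapped, and Akh was higher by 1.45 ± 0.21 (edgeR adjusted p = 0.00176). The gluconeogenic enzyme gene Pepck2 rose by 0.98 ± 0.18 (edgeR adjusted p = 0.00484).

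The list of 26 fat storage and feeding genes was mixed, with 3 higher (11.5%), 6 lower (23.1%) and 17 not called and a median of 0.05. Over all genes tested the shares were 8.82% higher and 12.5% lower. Of the lower genes of feeding and lipid transport, Sugarbabe, sug, a transcription factor induced by dietary sugar, was 964 to 1450 in set 1 (median 1055), against 1803 and 1844 in C2, 2058 in S2 and 2143 and 2217 in L2, lower by 0.83 ± 0.09 (edgeR adjusted p = 0.000396). apolpp, on chromosome 4, encodes the main lipoprotein of the haemolymph and had 26103 to 36892 counts in set 1 (median 29703), against 60525 and 71316 in C2, 74857 in S2 and 59300 and 61429 in L2. The sets were apart by 2.20-fold (-1.14 ± 0.10; edgeR adjusted p = 0.000122), and apolpp overlaps other annotated genes on both strands. The lipid droplet protein gene Lsd-1 fell by 0.59 ± 0.09, the gut lipase gene mag by 0.52 ± 0.08 and the nutrient-responsive peptide gene CCHa2 by 0.63 ± 0.09 (edgeR adjusted p = 0.00256, 0.00229 and 0.00122), each with separate sets, and mag alone of these lost its call when the left-out S2 library was put back (edgeR adjusted p = 0.0611). Mal-B2, a maltase gene and the only higher member of the 42 digestive enzyme genes, was 12694 to 28710 in set 1 (median 19859), against 6232 and 6562 in C2, 6078 in S2 and 3440 and 5229 in L2. It was 3.59-fold higher with no overlap (1.84 ± 0.14; edgeR adjusted p = 6.13e-05).

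The broadest coherent change was a fall in seminal fluid transcripts. Of 30 tested genes of the accessory gland and ejaculatory bulb list, 28 were lower in set 1, none was higher and 2 were not called. The lower share was 93.3%, against 12.5% of all genes tested. The median difference was -0.99, a level of 0.504 times that of set 2. Summed over the list, the normalised counts of the 6 set 1 libraries and of the 5 set 2 libraries did not overlap, at 167668 to 224797 and 338232 to 404879. Pools of whole flies do not separate fewer gland cells from less RNA per gland cell, and these cannot be told apart. Acp53Ea, one of a cluster of seminal protein genes on 2R from 16749803 to 16750335, had 8370 to 12657 counts in set 1 (median 11044), against 25790 and 26002 in C2, 23912 in S2 and 27052 and 27147 in L2. It was 2.41-fold lower (-1.27 ± 0.07; edgeR adjusted p = 3.09e-05). Its neighbours Acp53C14a and Acp53C14b were 2.68-fold and 2.30-fold lower (-1.42 ± 0.07 and -1.20 ± 0.07; edgeR adjusted p = 2.84e-05 and 3.09e-05). In all of them the highest library of set 1 lay below the lowest of set 2.

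Seminal proteins with known roles in the mated female were part of this fall. The sex peptide gene SP, whose product makes mated females refuse further males and lay eggs, was 2611 to 3372 in set 1 (median 3133), against 6457 and 6303 in C2, 5200 in S2 and 5678 and 5711 in L2. It was lower by 0.92 ± 0.09 (edgeR adjusted p = 0.000184). Acp26Aa, ovulin, which stimulates ovulation, was lower by 1.29 ± 0.11, Acp36DE, needed for sperm storage, by 1.27 ± 0.11, and Dup99B, a relative of SP made in the ejaculatory duct, by 0.91 ± 0.21 (edgeR adjusted p = 0.000107, 0.000107 and 0.0146). None of these had overlapping sets, and Dup99B lost its call without C2 (edgeR adjusted p = 0.0514) and when the left-out S2 library was put back (0.0823). Of 27 further seminal fluid genes named Sfp, a list added once the fall had been seen, 26 were lower and 1 was not called, with a median of -1.14. Sfp24F had 551 to 798 counts in set 1 (median 723), against 2257 and 2104 in C2, 2014 in S2 and 2032 and 2315 in L2. At 1.61 ± 0.07 below set 2 it had the smallest adjusted p of all lower genes that the naming rule covers (edgeR, 1.4e-05). Sfp60F was lower by 1.59 ± 0.10 (edgeR adjusted p = 3.61e-05). The largest fall of these genes, Sfp33A4, was 59.5 to 114 in set 1 (median 84.7), against 381 and 406.9 in C2, 292.3 in S2 and 415.4 and 450 in L2, a difference of 2.12 ± 0.16 (edgeR adjusted p = 6.13e-05), and it overlaps a gene on the other strand.

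The ejaculatory bulb proteins, which form the mating plug, and several serpins followed. Ebp was 32677 to 56646 in set 1 (median 43876), against 99190 and 117179 in C2, 110931 in S2 and 135598 and 122777 in L2, and was 2.63-fold lower (-1.40 ± 0.09; edgeR adjusted p = 3.79e-05). EbpII fell by 1.55 ± 0.10 and EbpIII by 0.78 ± 0.09 (edgeR adjusted p = 4.92e-05 and 0.000547), again with no overlap. Serpins inhibit proteases, and some of them are seminal proteins. The serpin Spn28F was 1968 to 6548 in set 1 (median 3172), against 13186 and 19652 in C2, 15248 in S2 and 18066 and 17850 in L2. No set 1 library came near set 2, and the gene was 4.64-fold lower (-2.21 ± 0.16; edgeR adjusted p = 5.81e-05). Spn38F fell by 1.16 ± 0.09 and Spn75F by 1.40 ± 0.08 (edgeR adjusted p = 7.25e-05 and 3.09e-05). Spn28F and Spn38F are also on the accessory gland and ejaculatory bulb list, so its count of lower genes already holds them. Over all genes tested, 8.82% were higher and 12.5% lower. Of the 27 serpins of a list added after the data had been seen, 4 were higher (14.8%), 9 lower (33.3%) and 14 not called. Of 39 odorant binding protein genes, 15 were lower (38.5%) and 1 higher (2.56%), with a median of -0.23. Their lower members included Obp22a, at -1.25 ± 0.07, and Obp56g, at -0.95 ± 0.09 (edgeR adjusted p = 2.99e-05 and 0.000148), each with separate sets. CG18301 and CG17472, the remaining genes with the smallest p-values, were lower by 1.28 ± 0.07 and 1.18 ± 0.06 (edgeR adjusted p = 2.84e-05 and 2.99e-05).

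Testis genes did not share the fall. Of 33 tested genes of the testis and sperm list, 1 was higher (3.03%) and 2 lower (6.06%), with a median of 0.08 and a range of -0.33 to 0.28. Over all genes tested the shares were 8.82% and 12.5%. The 3 calls were the testis transcription factor genes can (0.28 ± 0.08) and sa (-0.33 ± 0.09) and the sperm chromatin protein gene ProtB (-0.30 ± 0.07), with edgeR adjusted p-values of 0.0359, 0.0324 and 0.0211, and each lost its call when single populations were left out (highest adjusted p 0.128 for can without C2 and 0.119 for sa without C1, and 0.0951 for ProtB without C1). Among 11 Y-linked fertility genes, Pp1-Y1, a phosphatase subunit gene, was 5.51 to 107 in set 1 (median 40.8), against 138 and 147 in C2, 175 in S2 and 189 and 214.8 in L2. That is lower by 1.92 ± 0.54 (edgeR adjusted p = 0.0336) with no overlap, and the adjusted p was 0.0592 without C2 and 0.0903 without L1 pool 2. Of the other 10, Pp1-Y2 was called, higher in set 1 by 0.28 ± 0.09 (edgeR adjusted p = 0.0498, and 0.14 without C1). No gene was called of 18 female germline and eggshell genes, and of 4 yolk and female fat body genes 1 was lower, the nutrient-responsive secreted protein gene fit (-1.36 ± 0.27; edgeR adjusted p = 0.0081). Taken as the median over the 23 female germline genes of the library check, the level was 0.197% to 0.637% of that in females in set 1. In set 2 it was 0.184% to 0.455%.

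**Figure D3:**
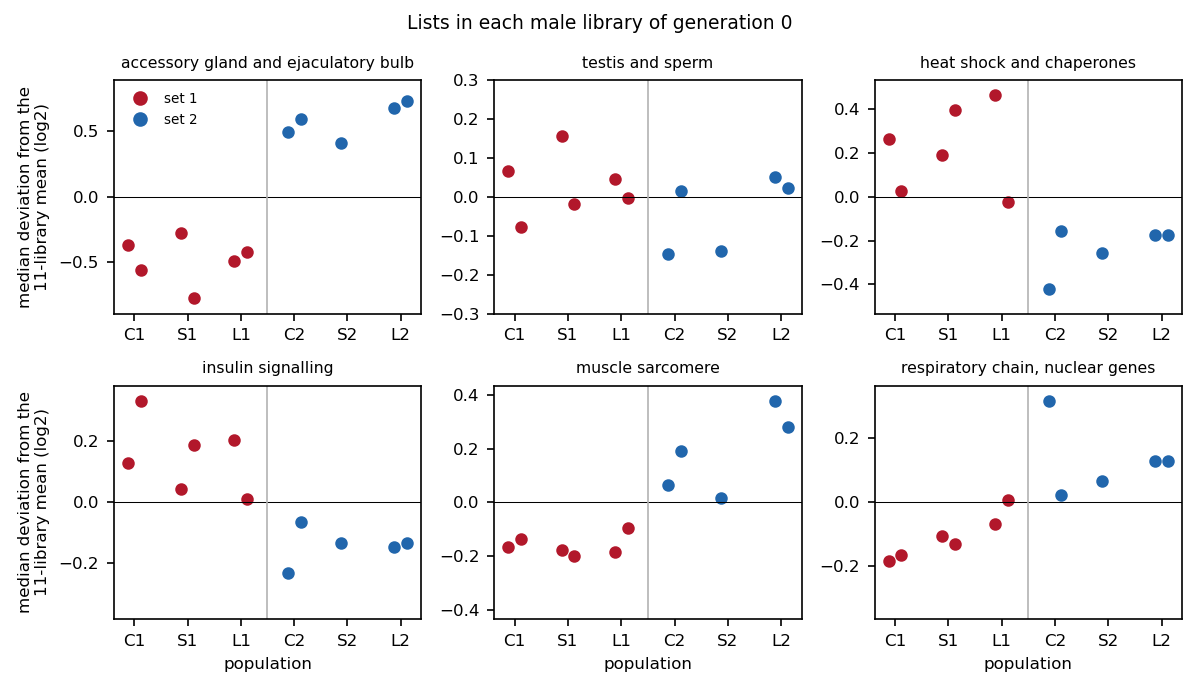
Median deviation from the mean of the 11 libraries (vertical, log2) over the genes of 6 lists, in each male pool of generation 0 by population (horizontal), set 1 (red) left of set 2 (blue). For the accessory gland list every pool of set 1 lies below 0 and every pool of set 2 above, while for the testis list the sets overlap.

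Muscle genes were lower in set 1. Of 24 sarcomere genes 13 were lower (54.2%), 1 was higher (4.17%) and 10 were not called, with a median of -0.33. Over all genes tested 12.5% were lower and 8.82% higher. Act57B, a muscle actin gene, was 17709 to 21359 in set 1 (median 19764), against 26251 and 36368 in C2, 30723 in S2 and 37403 and 36562 in L2, lower by 0.75 ± 0.08 (edgeR adjusted p = 0.000341). Its sets were separate, as were those of the myosin light chain gene Mlc2 (-0.57 ± 0.08), the myosin heavy chain gene Mhc (-0.53 ± 0.08) and the troponin C gene TpnC47D (-0.96 ± 0.09; edgeR adjusted p = 0.00172, 0.00242 and 0.000148). SERCA, the calcium pump of the sarcoplasmic reticulum, was 1.81-fold lower (-0.85 ± 0.12; edgeR adjusted p = 0.00113). The exception was TpnC4, a troponin C of the flight muscle, which was 146 to 595 in set 1 (median 232.7), against 102 and 86.7 in C2, 81.5 in S2 and 105 and 121 in L2. It was higher by 1.57 ± 0.21 (edgeR adjusted p = 0.00116), and its span overlaps other annotated genes on both strands. With the left-out S2 library put back 5 of the 24 genes were lower.

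Nuclear genes of the mitochondrion were lower by small amounts. Of 86 respiratory chain genes on a list added after the data had been seen, 42 were lower and none higher, with a median of -0.21. The lower share was 48.8%, against 12.5% of all genes tested. ATPsynC, a subunit of the ATP synthase, was 32607 to 39117 in set 1 (median 33709), against 52737 and 47414 in C2, 48095 in S2 and 51313 and 49576 in L2, lower by 0.52 ± 0.07 (edgeR adjusted p = 0.000893). Its sets were separate, and so were those of the complex I gene ND-AGGG (-0.50 ± 0.06; edgeR adjusted p = 0.000737) and the cytochrome oxidase gene COX6B (-0.53 ± 0.07; edgeR adjusted p = 0.000925). The mitochondrial ribosomal proteins had 23 of 72 members lower (31.9%) and none higher (median -0.17). Lower members included mRpL18 at -0.41 ± 0.07 and mRpL34 at -0.54 ± 0.10 (edgeR adjusted p = 0.00426 and 0.00639). Cytoplasmic ribosomal proteins had 14 of 91 lower (15.4%, near the 12.5% of all genes tested) and 1 higher (median -0.15). The proteasome had 11 of 46 lower (23.9%) and 1 higher (median -0.11), among them Prosbeta2 at -0.35 ± 0.06 (edgeR adjusted p = 0.00389). These counts depended on single populations and libraries more than those of the seminal fluid. Without C1 the respiratory chain list held 23 lower members and the mitochondrial ribosomal list 5, and with the left-out S2 library put back they held 8 and 5.

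Of 42 tested digestive proteases, maltases and amylases 13 were lower (31.0%), 1 was higher (2.38%) and 28 were not called, with a median of -0.39. Over all genes tested the shares were 12.5% lower and 8.82% higher. Over the whole list the libraries overlapped: the median deviation from the mean of the 11 libraries was -0.42 to 0.16 in set 1 and -0.28 to 0.71 in set 2, on the log2 scale. The serine protease gene Jon74E was 6656 to 11748 in set 1 (median 10279), against 29024 and 17638 in C2, 25905 in S2 and 25459 and 18571 in L2. It was 2.39-fold lower with no overlap (-1.26 ± 0.09; edgeR adjusted p = 5.25e-05). Jon99Fii, of the same family, was 405.8 to 1337 in set 1 (median 952), against 3212 and 4018 in C2, 5164 in S2 and 3180 and 2425 in L2. It fell by 2.06 ± 0.29 and Jon99Cii by 1.49 ± 0.17 (edgeR adjusted p = 0.00138 and 0.00044). Leaving out L2 gave 24 lower members of this list, and leaving out C2 pool 1 gave 9.

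The called immune effectors moved in both directions, with more of them lower. Of 34 antimicrobial peptide genes 6 were lower (17.6%, against 12.5% of all genes tested) and 1 higher (median -0.39). Over that list the libraries overlapped. Its median deviation from the mean of the 11 libraries, on the log2 scale, was -0.39 to 0.19 in set 1 and -0.68 to 0.89 in set 2. Of 18 peptidoglycan recognition protein and lysozyme genes 5 were lower (27.8%) and none higher (median -0.34). CecA2, a cecropin gene, was 56.0 to 271.6 in set 1 (median 112), against 1606 and 438.2 in C2, 720 in S2 and 294.3 and 526 in L2. It fell by 2.33 ± 0.40 and its neighbour CecA1 by 1.43 ± 0.24 (edgeR adjusted p = 0.00392 and 0.00362), with no overlap in either, and C2 pool 1 was the highest library for CecA2 by a wide margin. AttD, an attacin gene, fell by 1.95 ± 0.43 (edgeR adjusted p = 0.013) with overlapping sets, and not without C2 pool 2 (-1.47, edgeR adjusted p = 0.0788) or without L2 pool 2 (0.0512). The lysozyme genes LysX and LysP, expressed in the gut, fell by 1.42 ± 0.18 and 0.73 ± 0.13 (edgeR adjusted p = 0.000718 and 0.00438). In contrast to upd3, the Turandot stress peptides gave 1 higher gene, TotM (1.55 ± 0.37), and 1 lower, TotX (-1.12 ± 0.28; edgeR adjusted p = 0.0179 and 0.0213), of 4 tested. TotM was not called without C2 pool 2 (0.155) and TotX not without S2 pool 1 (0.0663).

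Detoxification genes moved in both directions, against 8.82% higher and 12.5% lower over all genes tested. Of 85 cytochrome P450 genes 12 were higher (14.1%) and 19 lower (22.4%). Of 35 glutathione transferases 7 were higher and 7 lower (20% each). Of 33 UDP-glycosyltransferases 2 were higher (6.06%) and 9 lower (27.3%). The medians were 0.00, -0.03 and -0.09. Cyp4ac3 was 1143 to 2153 in set 1 (median 1349), against 555 and 869 in C2, 659 in S2 and 592 and 613 in L2, higher by 1.17 ± 0.10 (edgeR adjusted p = 9.48e-05). Cyp6a16 fell by 1.45 ± 0.14 and Cyp9b2 by 1.18 ± 0.17 (edgeR adjusted p = 0.000158 and 0.00133). Ugt50B3 fell by 1.40 ± 0.12 (edgeR adjusted p = 0.000118), over a span that many other annotated genes share. Of the metallothioneins, which bind metals, 2 of 7 were higher, MtnD (0.54 ± 0.12) and MtnE (0.63 ± 0.14), with edgeR adjusted p = 0.0132 and 0.0145. Neither of them was called without L1 pool 1 (edgeR adjusted p = 0.166 and 0.349). Of 42 cuticle protein genes with the RR motif 5 were higher (11.9%) and 6 lower (14.3%), near the shares over all genes tested.

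Few genes of the clock and of sleep regulation were called, in populations that were about to be selected for sleep. Of 14 circadian clock genes 2 were higher (14.3%, against 8.82% of all genes tested) and none lower (against 12.5%), with a median of -0.03. The repressor gene cwo was 3911 to 5261 in set 1 (median 5034), against 2794 and 3541 in C2, 3313 in S2 and 3556 and 3512 in L2, higher by 0.50 ± 0.07 with no overlap (edgeR adjusted p = 0.00168). The call of vri, another clock transcription factor gene (0.40 ± 0.11; edgeR adjusted p = 0.0278), was lost without C1 (0.103), without L1 pool 1 (0.207) and in other such fits. Of 25 sleep regulators only DAT, the dopamine transporter gene, was called, at 0.46 ± 0.13 (edgeR adjusted p = 0.0396). Its sets overlapped, with 158.8 to 226.2 counts in set 1 and 113 to 165 in set 2, and the call was lost in most of the fits that left out a population or a library (highest adjusted p 0.132, without S1). Of 28 neuropeptide genes 2 were higher (7.14%), Akh and Nplp1 (0.29 ± 0.06, edgeR adjusted p = 0.0069, and 0.16 without C2 pool 1). The lower ones numbered 6 (21.4%, against 12.5% of all genes tested), CCHa2 among them.

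Hormone response genes leaned upward, with 7 of 24 ecdysone and juvenile hormone genes higher (29.2%) and 2 lower (8.33%) and a median of 0.15. Over all genes tested the shares were 8.82% and 12.5%. Hr38, a nuclear receptor gene that neurons induce when active, was 548 to 1636 in set 1 (median 815), against 226.6 and 464.6 in C2, 376.2 in S2 and 440.8 and 446.2 in L2. It rose by 1.22 ± 0.16, the ecdysone-induced nuclear receptor gene Eip75B by 0.64 ± 0.06 and Kr-h1, which acts downstream of juvenile hormone, by 0.73 ± 0.16 (edgeR adjusted p = 0.00078, 0.000138 and 0.012). Hr38 and Eip75B had separate sets and overlap genes on the other strand, and the sets of Kr-h1 overlapped. Of 78 odorant, gustatory and ionotropic receptor genes 10 were higher (12.8%) and 3 lower (3.85%), with a median of 0.19. Besides Gr63a, Gr98a rose by 0.79 ± 0.13, and Gr43a, a fructose receptor gene, fell by 1.31 ± 0.29 (edgeR adjusted p = 0.00241 and 0.012), and Gr43a was not called with the left-out S2 library put back (0.0755). Of 22 phototransduction genes only the photoreceptor myosin gene ninaC was called, higher by 0.36 ± 0.11 (edgeR adjusted p = 0.0455, and 0.136 without C1), and none of 8 dosage compensation genes was called.

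**Figure D4:**
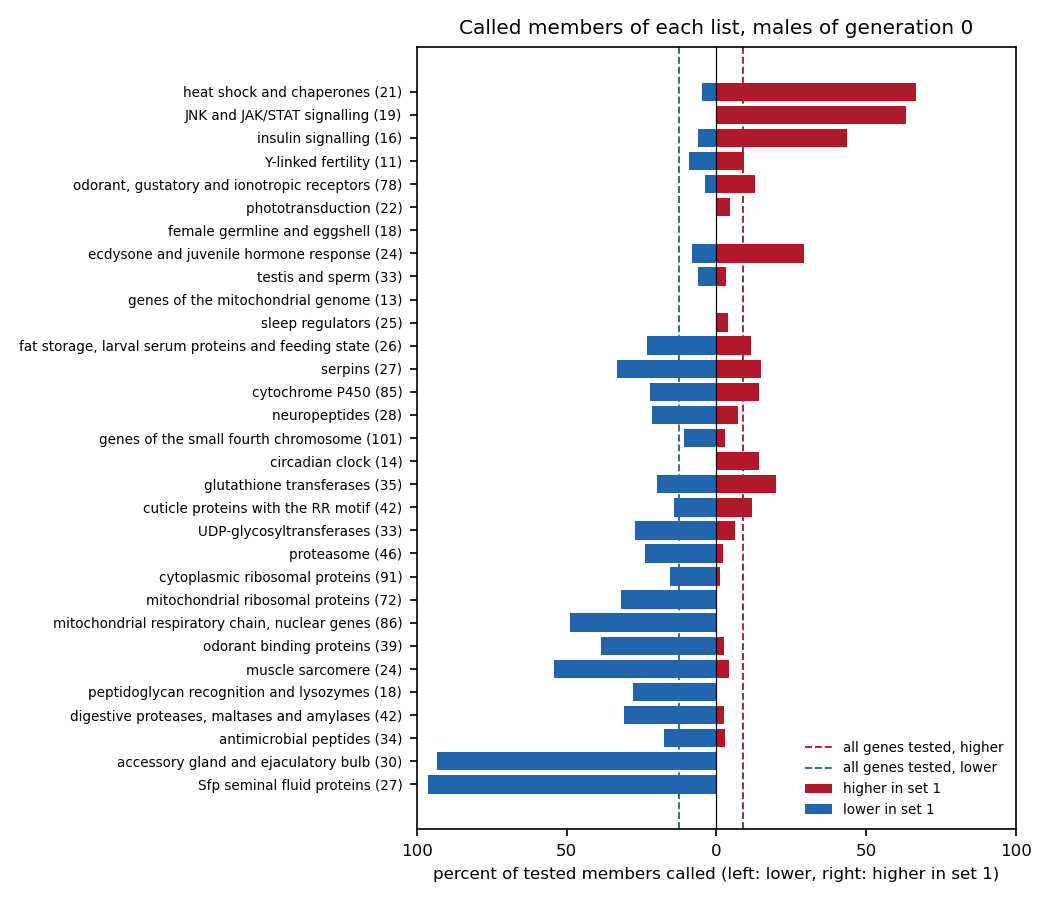
Percent of the tested members of each list (list size in parentheses) that were called in males of generation 0, higher in set 1 to the right and lower in set 1 to the left; dashed lines mark the shares over all genes tested, 8.82% higher and 12.5% lower. The accessory gland list (28 of 30) and the Sfp list (26 of 27) reach furthest to the left and the heat shock list (14 of 21) furthest to the right.

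Several transcripts differed by large amounts with few counts in one set, a group apart from the pathways above. CG33666 (X, 6476243 to 6476967) had 291.7 to 456 counts over the 6 libraries of set 1, against 25.7 and 34.9 in C2, 36.1 in S2 and 30.3 and 31.8 in L2. It was 12.0-fold higher (3.59 ± 0.17; edgeR adjusted p = 1.71e-05), and a gene of the same strand overlaps it. On the same stretch of X and in the other direction, CG33669 (6399455 to 6400100) had 5.90 to 127.8 counts in set 1 (median 66.8), against 410 and 226.3 in C2, 312.1 in S2 and 211.9 and 319.04 in L2. CG33664 (6384220 to 6384899) had 20.9 to 258.7 in set 1 (median 184), against 573 and 445.4 in C2, 480.97 in S2 and 610 and 620 in L2. Set 1 lay below set 2 for both, by 2.23 ± 0.59 and 1.84 ± 0.50 (edgeR adjusted p = 0.0267 and 0.0305), but their spread within set 1 was wide. The call of CG33669 was lost without L1 (0.0583), without C2 (0.0722) and without S2 (0.0633), and its value without S1 was -3.02. The call of CG33664 was lost without C2 (0.0701), without S2 (0.0579) and without L2 (0.0501).

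asRNA:CR44030, on chromosome 4 from 959675 to 962692, was 15.9 to 90.6 in set 1 (median 43.0), against 332.9 and 273.2 in C2, 273.2 in S2 and 285.8 and 196 in L2. It was the largest fall that the naming rule covers, at -2.62 ± 0.22 (edgeR adjusted p = 0.000105), and it overlaps genes on both strands. Over the 101 tested genes of chromosome 4, 3 were higher (2.97%) and 11 lower (10.9%). Both shares lay below those of all genes tested (8.82% and 12.5%). Other lower members were lncRNA:sphinx (-1.46 ± 0.16), a noncoding gene linked to male courtship, and mav (-0.58 ± 0.08), a ligand of the TGF-beta family (edgeR adjusted p = 0.00034 and 0.00142). lncRNA:CR44345 had 3.77 to 37.8 counts in set 1 (median 25.5), against 137 and 128.8 in C2, 126 in S2 and 104 and 130.9 in L2, a fall of 2.34 ± 0.26 (edgeR adjusted p = 0.00038). The sets of lncRNA:CR44534 (-2.27 ± 0.33), CG11131 (-2.15 ± 0.26), CG1894 (-2.09 ± 0.30) and lncRNA:CR45638 (-2.07 ± 0.48) were likewise separate (edgeR adjusted p = 0.00165, 0.000613, 0.00155 and 0.0163). CG17192 fell by 2.30 ± 0.57 (edgeR adjusted p = 0.0213), a call that was lost without C1 (0.076) and without S1 (0.052), and its value was -1.43 without S2 pool 1, where it had 1099 counts. lncRNA:CR46110 went up. It was 108 to 221.3 in set 1 (median 148), against 30.4 and 33.7 in C2, 12.8 in S2 and 46.02 and 22.9 in L2, higher by 2.50 ± 0.34 (edgeR adjusted p = 0.00108). lncRNA:CR46110, lncRNA:CR45638 and CG17192 each overlap a gene on the other strand.

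Some rarer or more variable transcripts outside the naming rule, were chosen after their values had been seen. lncRNA:CR44942 (3R, 12618876 to 12619428) had 0 to 8.46 counts in set 1 (median 2.29), against 82.9 and 30.1 in C2, 39.6 in S2 and 37.5 and 53.4 in L2. lncRNA:CR44547 (3L, 11034802 to 11035905) had 0 to 5.51 in set 1 (median 0.52), against 14.0 and 59.0 in C2, 31.4 in S2 and 35.1 and 21.6 in L2. Both were almost missing from set 1, and the fitted differences were -3.64 ± 0.37 and -4.52 ± 0.44 (edgeR adjusted p = 0.000222 and 0.000195), the second at -5.89 without C1 pool 2. lncRNA:CR32553 (X, 18124575 to 18127027) was 37.7 to 111 in set 1 (median 58.4), against 913 and 2873 in C2, 40.8 in S2 and 3282 and 1181 in L2. Its fall of 4.46 ± 1.01 (edgeR adjusted p = 0.0141) came from C2 and L2, since S2 lay within set 1, and its adjusted p was 0.0598 without C1. CG32198 was 268.5 to 694 in set 1 (median 411.98), against 180 and 21.7 in C2, 193 in S2 and 86.0 and 12.7 in L2, and was 3.99-fold higher with no overlap (2.00 ± 0.38; edgeR adjusted p = 0.00626).

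Some calls not yet marked as lost were lost in other fits. Set against C2 pool 1 alone, with libraries as units, set 1 gave no call for Hsp23, Akh, TpnC4, Mhc, Pepck2, Socs36E or Lsd-1. Nor was there a call for lncRNA:alphagamma-element:CR32865, Thor, Acp36DE, Gr63a, CG1894 or Ets21C. Each kept the sign of the full comparison. That fit left 1 library in set 2, so it cannot show whether these calls rested on the other libraries. With the left-out S2 library put back, the calls of Hsp26 (edgeR adjusted p = 0.676), CG33664 and CG33669 (0.128 each), Pp1-Y1 (0.127), lncRNA:CR45638 (0.0949), AttD (0.0594), CG17192 (0.057) and Kr-h1 (0.0518) were lost.

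The same contrast was fitted in 12 female libraries of generation 0, in 11 male libraries of generation 2 and in the male libraries of generations 3 to 13, from the same bottles and their descendants. In females 3 of 10541 genes were called (0.0285%), all lower in set 1, with 1095 at an unadjusted p under 0.05. The 3 were Or42a, lncRNA:CR44621 and lncRNA:CR32553, the last at -3.72 (edgeR adjusted p = 0.0454). Of the genes called in males and tested in both sexes, 828 of 1037 higher genes (79.8%) and 1089 of 1302 lower genes (83.6%) had the same sign in females, against 67.2% of all 10379 genes tested in both. Their median difference in females was 0.17 for the higher genes and -0.19 for the lower, against 0.40 and -0.43 in males. The genes were picked on their male values, which enlarges the male medians. The smaller female medians therefore do not by themselves show a weaker difference in females. The test of the difference between the sexes called 1 of 10379 genes, CG10761, with 1089 at an unadjusted p under 0.05. More genes passed the threshold in males, but for no other gene was a set difference shown to differ between the sexes.

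In females, Hsp70 varied between the bottles of set 1. The sum of the 6 copies was 777 and 1106 in C1 females and 3694 and 1766 in L1 females but 35.7 and 49.3 in S1 females, against 21.6 to 90.1 in the 6 female libraries of set 2. C1 and L1 stood far above set 2 and S1 did not. Hsp70Ab was 4.96 higher in set 1 females, close to the 4.92 of males, and was not called (edgeR adjusted p = 0.47). Gr63a in females was 4.76 higher and upd3 1.61 higher, both not called (edgeR adjusted p = 0.47). The nutrient genes, also picked on their male values, had smaller values in females than in males: 0.17 for Mal-B2, 0.25 for bmm, 0.24 for InR and 0.35 for REPTOR, none called.

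By generation 2 the order of the sets for Hsp70 had turned in the highest libraries. In generation 2 males the sum of the Hsp70 copies was 74.6 to 505.2 in set 1, against 119 to 4003 in set 2, where C2 pool 1 (3955) and S2 pool 2 (4003) were the highest, and Hsp70Ab was 3.43 lower in set 1 without being called (edgeR adjusted p = 0.166). Over all genes 35 were higher and 39 lower of 14250 tested (0.246% and 0.274%, 0.519% in all), with 2077 at an unadjusted p under 0.05. Of these 74 genes 49 had also been called in generation 0 in the same direction, which is 66.2% of the generation 2 list and 1.61% of the generation 0 list, and none in the opposite direction. Among them were EbpII (-0.66; edgeR adjusted p = 0.0181), SERCA (-0.70; 0.0221), CG33664 (-2.59; 0.0181), CG33669 (-2.55; 0.0419), CG1894 (-1.87; 0.0317), ppk19 (1.29; 0.0419), lncRNA:CR44547 (-4.98; 0.0284) and CG32198 (3.79; 0.0181). The generation 2 calls rested on few bottles: without C2 there were 0, without L1 14 and without S2 19.

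In generations 3 to 13 no gene of 14248 was called (0%), with 1740 at an unadjusted p under 0.05. Some genes kept their sign across the generations, with values that in part moved nearer to 0. CG1894 was at -2.09 in generation 0, -1.87 in generation 2 and -2.07 in generations 3 to 13 (edgeR adjusted p = 0.0593 in the last), and lncRNA:CR46110 at 2.50, 1.39 and 2.15 (0.0701). For lncRNA:CR44547 the values were -4.52, -4.98 and -5.21 (0.0593 in the last), and for CG33666 they were 3.59, 1.92 and 1.77. Of the 189 genes higher by more than 1 log2 unit in generation 0 that were tested throughout, 27 were also higher by more than 1 in both later comparisons, and of 360 lower genes 32 were also lower by more than 1 in both. In generations 3 to 13 alone, 38 of the 189 and 42 of the 360 passed 1 log2 unit with the same sign, while 54.5% of the higher and 62.5% of the lower genes lay within 0.5 of 0. All genes followed here were picked on their generation 0 values. Smaller values in later libraries therefore do not by themselves show that a difference faded. In generation 2, 15 of the higher and 3 of the lower genes passed 1 log2 unit with the opposite sign. The seminal fluid list held a median of -0.34 in generation 2 and -0.28 in generations 3 to 13, against -0.99 in generation 0, with -0.02 and -0.01 over all genes. Sfp24F was at -0.76 and -0.58, SP at -0.62 and -0.29 and Ebp at -0.39 and -0.28 in the later comparisons, none of them called. The values of bmm (0.31 and 0.17), InR (0.11 and 0.30) and apolpp (0.01 and -0.26) were nearer to 0 than in generation 0, again with no call.

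**Figure D5:**
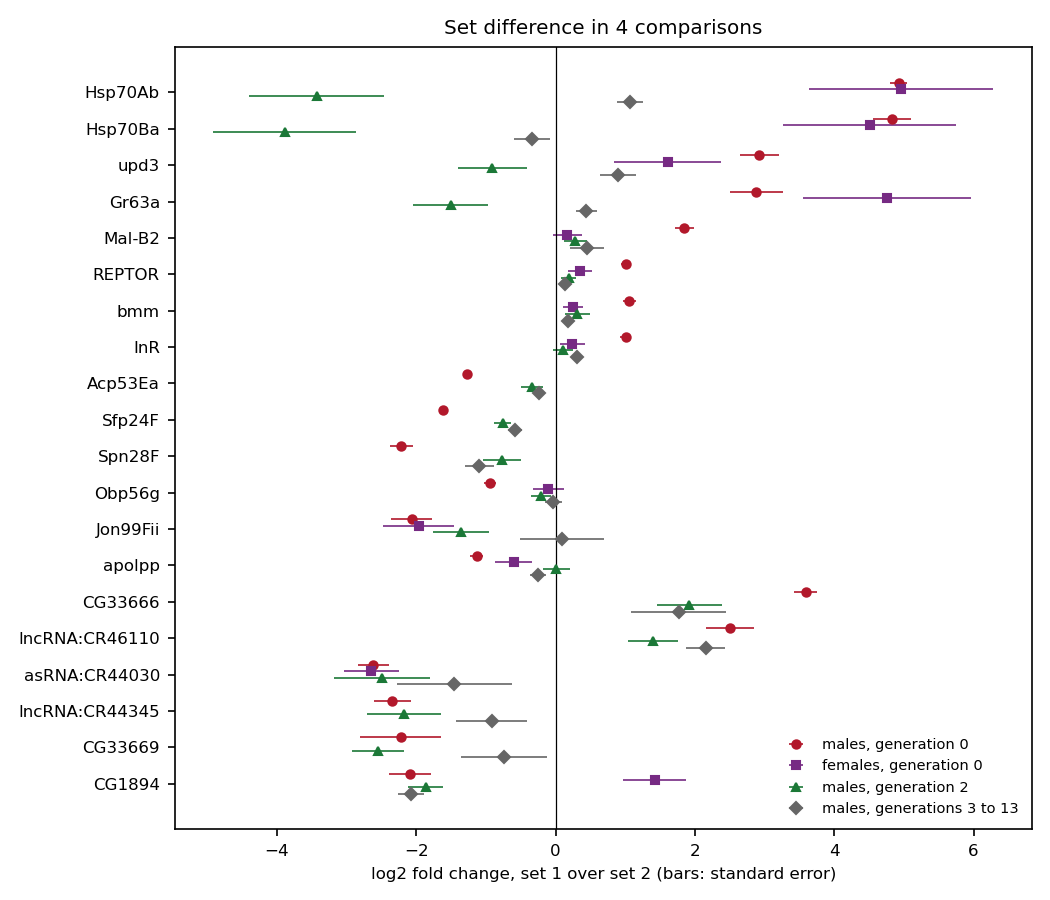
Log2 fold change of set 1 over set 2 (horizontal) for 20 named genes, in males of generation 0 (red circles), females of generation 0 (purple squares), males of generation 2 (green triangles) and males of generations 3 to 13 (grey diamonds); bars are standard errors, and genes not tested in females have no square. Hsp70Ab lies at 4.92 and 4.96 in males and females of generation 0 and at -3.43 in generation 2, while CG1894 lies near -2 in all 3 comparisons of males.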

How the data were processed

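Whole-body poly(A) libraries were stranded TruSeq preparations. STAR alignments to the FlyBase release 6 genome were the authors' basis for the deposited counts, which are raw reads per gene from HTSeq, unique alignments only; the strand setting is not given in the sources used here. The authors also gave per-library size factors from DESeq; the second deposited file, with counts divided by them, holds the normalised values (a signal, never negative) used for printed levels.

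Pools of a population were summed, and 3 populations per set were compared with edgeR 4.0.16 (R 4.3.3) quasi-likelihood tests, two-sided, with summed size factors as library sizes and Benjamini-Hochberg adjustment over all genes with a mean normalised count of at least 10. Calls used an adjusted p under 0.05. SE is the log2 fold change divided by the square root of F. Replicates were separate bottles, so p-values measure the spread between bottles. Pools of 1 bottle differed beyond sampling noise by a chi-square test of their counts. Depth per library is given with the results. Alternatives used limma 3.58.1 (voom), DESeq2 1.42.0, TMM factors, other filters, and leaving out each population and library. The edgeR fits of generation 0 were run on simulated counts with known changes.

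Genes were named by rule: among called genes with a mean of at least 50 and sets that did not overlap, the 12 largest changes and 6 smallest p-values per direction, and up to 4 called genes per list and direction. The members and lists were chosen with earlier results of these data known. The lists Sfp, ejaculatory bulb, JNK and JAK/STAT, respiratory chain and serpins were added after values had been seen, as were the genes lncRNA:alphagamma-element:CR32865, stv, Hsp23, Hsp26, ppk19, CG5953, REPTOR, Akt, Ilp6, Acp26Aa, Acp36DE, SP, Dup99B, Mhc, SERCA, CG33664, lncRNA:CR44942, lncRNA:CR44547, lncRNA:CR32553 and CG32198. Gene spans and overlaps come from the Ensembl annotation of the same release 6 genome, which matched 17219 gene identifiers; InR had no match. The left-out S2 male library, and the males of later generations that carried female RNA, entered only the stated alternatives.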

Additional observations from a re-analysis of the deposited data

Results flagged for a closer look

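Single libraries stood apart from the rest of their set, by the gap to the next value over the range of the set, in 19 cases (7.66% of the sets of values looked at). The cut-off gives about 1 in 20 for independent, normally distributed values. These were counts of genes picked for their values, and some, such as the Hsp70 copies and their sum, were not independent. The share therefore cannot be weighed against that rate. In set 1, L1 pool 1 was the highest library for upd3 (384.7 normalised counts, the others 89.4 to 197.2) and for Gr63a (339.5, the others 52.9 to 145.3), and L1 pool 2 for CG1894 (228.9). Pool 2 of C1 was the highest for Gr43a (92.6) and lncRNA:CR44547 (5.51) and the lowest for ProtB (5712), and C1 pool 1 was the lowest for mRpL18 (429.9). In set 2, S2 pool 1 was the highest for CG17192 (1099) and the lowest for Hsp70Aa (2.33), for the sum of the Hsp70 copies (92.0), for Acp53C14a (24814) and for sa (669.6). Pool 2 of C2 was the highest for Hsp70Ab (22.87) and upd3 (38.5), C2 pool 1 for Akh (531.4), Dup99B (20800) and TotM (670.4), and L2 pool 1 for lncRNA:alphagamma-element:CR32865 (10.9). In males of generation 2, the highest sum of the Hsp70 copies in set 1 was that of L1 pool 2 (505.2, the others 74.6 to 180.0). S2 pool 1 was thus the library that stood apart most often, 5 times, among them for Hsp70Aa and for the Hsp70 sum that contains it.

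One gene passed the test of the difference between the sexes in generation 0. The set difference of CG10761 was 2.52 ± 0.21 greater in males than in females on the log2 scale (edgeR adjusted p = 0.0335), made up of 0.06 in males and -2.46 in females, neither of which was itself called (edgeR adjusted p = 0.616 and 0.142).

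In the S2 male library that was left out, female germline genes stood at 34.4% of their level in females and osk at 18258 normalised counts, far above every other male library of generation 0.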

How the results depend on the processing

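The genes called higher and lower in set 1 males (8.82% and 12.5% of those tested) stayed within 1.5 times of these shares under libraries as units, voom, TMM, median-of-ratios, DESeq2, both other filters, the scheme as a block, and leaving out C2 pool 1. With the left-out S2 library included 3.72% were higher and 5.49% lower, and at an adjusted p under 0.001 1.05% were higher and 2.87% lower. Leaving out 1 population or library gave 4.94% (without C1) to 16.5% (without L2) higher, and 8.06% (without C1) to 14.3% (without L2) lower; without S1 the higher genes were 5.78% and without C2 5.8%. Against C2 pool 1 alone, with libraries as units, 17.8% were higher. The causes were not tested. The pool numbers do not pair the sets: deviations of same-numbered libraries correlated at -0.138 to 0.034, and with libraries as units and the pool number as a replicate block 8.69% were higher and 13.8% lower.

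The other comparisons depended on the unit of replication. With libraries as units 0.446% of genes were called in females, 2.76% in generation 2, 30.3% in generations 3 to 13 and 2.64% between the sexes, against 0.0285%, 0.519%, 0% and 0.00963% with populations as units; the fits on libraries treat pools and generations of 1 bottle as separate. In females TMM factors and the stricter filter each gave 0.00949%, and leaving out 1 population 0% to 0.019%. For generation 2 leaving out 1 gave 0% (without C2) to 0.611% (without L2), and including its left-out library 0%. For generations 3 to 13 no filter gave 0.0211%, and leaving out 1 gave 0% to 0.0281%. Between the sexes leaving out 1 gave 0% to 0.723% (without L1), and the stricter filter and the left-out library each gave 0%.

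Of 5781 log2 fold changes of named genes under 30 alternatives 3 changed sign: Cyp6a19, at -2.996 with the left-out S2 library, and BomS2 (-0.14) and NPFR (0.31) against C2 pool 1 alone, none of them called there; the causes were not tested. In all 30 alternatives 69 genes stayed past the threshold.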

Other observations

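Within set 1 the pools of a bottle differed in the nutrient and seminal genes, a description made after the values had been seen and with no test. Thor stood at 22233 and 41891 in pools 1 and 2 of C1, at 16145 and 26819 in S1 and at 41871 and 24012 in L1. Acp53Ea stood at 11587 and 10522 in C1, at 12657 and 8370 in S1 and at 9208 and 11565 in L1. In each of these bottles the pool with the higher Thor count had the lower Acp53Ea count. The set 2 bottles with both pools did not show this, since Acp53Ea was nearly level and only slightly higher in the pool with more Thor. Thor stood at 13042 and 17487 and Acp53Ea at 25790 and 26002 in C2. For L2 the counts were 9970 and 12304 for Thor and 27052 and 27147 for Acp53Ea. In set 1 the pools with more Thor had the higher counts of bmm, Mal-B2 and CG13868.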
